A study of Mus musculus with 40 samples.

Results

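Cxcl1, Cxcl2, Cxcl5 and Csf3 encode 3 chemokines that attract neutrophils and the growth factor that drives their production, and their levels were followed in mouse lung after an allergen. They were taken as every probe set whose gene symbol in the platform annotation is one of these 4, which gave 4 probe sets, 1 for each gene, of 22690 on the array, or 4 of 12393 genes. Lung RNA from 8 groups, with 5 arrays each, had been hybridised to one-colour Affymetrix arrays, and the groups are named here by strain, treatment and time: C3H or AJ mice, aspiration of an allergen in phosphate-buffered saline (PBS) or of PBS alone, and lungs taken 24 h or 6 h later. The comparisons ask whether each gene responds to allergen, and whether the response differs between the strains, of which the labels call AJ hyperresponsive, or between the times. Titles name the allergen OVA and descriptions name it HDM, so it is called allergen here, and all 40 descriptions name AJ although 20 titles give C3H, so the strain is that of the titles. The age and sex of the mice are not given in the sources used here, and nothing in the labels ties each array to its own mouse, so the p-values cover the spread between these samples only, which may be technical.

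Chemokines of the CXC family that carry a glutamate-leucine-arginine motif (ELR) bind the receptor Cxcr2 and draw neutrophils from blood into tissue. Macrophages, epithelium and other lung cells make them within hours of a stimulus, when interleukin 1 (IL-1), tumour necrosis factor or Toll-like receptor signals activate the transcription factor NF-kB, and interleukin 17 prolongs the life of their mRNAs. Csf3, granulocyte colony-stimulating factor, is induced by many of the same signals and acts on bone marrow through Csf3r, raising the production and release of neutrophils.

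Cxcl5, Cxcl1 and Cxcl2 lie in 1 cluster on chromosome 5, in the RefSeq order Cxcl5, Ppbp, Pf4, Cxcl3, Cxcl15, Cxcl1 and Cxcl2, and Csf3 lies on chromosome 11. Promoter windows from RefSeq (assembly GRCm38.p6, of the C57BL/6J reference mouse and not of AJ or C3H) are shown for Cxcl1 and Cxcl2, neighbours in the cluster whose levels fell most between 6 h and 24 h after allergen. They are 250 bases up to the gene start, at chr5:90890995-90891244 and chr5:90903649-90903898, both on the plus strand. Capitals mark the letters GGAATTTCC, which NF-kB proteins can bind, and the element ATAAAA, which resembles a TATA box.
Cxcl1: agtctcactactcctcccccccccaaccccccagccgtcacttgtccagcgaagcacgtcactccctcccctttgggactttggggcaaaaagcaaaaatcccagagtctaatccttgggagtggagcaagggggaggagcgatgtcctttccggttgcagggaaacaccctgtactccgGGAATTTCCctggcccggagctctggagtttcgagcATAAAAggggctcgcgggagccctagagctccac
Cxcl2: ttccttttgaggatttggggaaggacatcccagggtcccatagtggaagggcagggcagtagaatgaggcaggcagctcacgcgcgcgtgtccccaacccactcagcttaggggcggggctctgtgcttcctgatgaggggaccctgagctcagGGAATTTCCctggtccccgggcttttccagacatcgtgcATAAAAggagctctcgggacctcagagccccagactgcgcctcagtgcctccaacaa

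The kB-type letters GGAATTTCC, searched on both strands, began 70 bases before the start of Cxcl1 and 96 bases before that of Cxcl2. They were found in 94 of 32851 promoter windows of the same length, or 0.286%. The longest run that both windows shared was 14 bases, gggaatttccctgg, which contains them. Of the cluster's other windows, that of Cxcl3 held the letters, 72 bases before its start, and those of Ppbp, Pf4 and Cxcl15 did not. ATAAAA began 34 and 57 bases before the starts of Cxcl1 and Cxcl2 and stood in 17% of all windows. The AP-1-type letters TGANTCA stood in neither window and in 6.75% of all. Promoters of Cxcl5 and Csf3 were not in the table used here. A match of letters describes the reference sequence and shows no binding.

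Values below are the deposited intensities, and every difference is one of log2(intensity + 16) with its limma standard error (SE), a 95% interval where given, and a p-value adjusted by Benjamini-Hochberg over all 12393 genes. A gene is said to have risen or fallen where that adjusted p is below 0.05. Adding 16 steadies dim values and understates the change of dim genes, and from 15.4% to 20.8% of the probe sets on an array lay below 16. Precision is limited by the number of arrays. In whole lung, fewer cells of a type and less RNA per cell cannot be told apart.

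Cxcl1, Cxcl2 and Cxcl5 rose at 6 h after allergen in both strains, and all 3 were lower at 24 h than at 6 h after it. Csf3 rose in 1 of the 4 allergen comparisons, AJ lungs at 6 h. At 24 h, 1 of the 4 genes rose in C3H lungs and 3 of 4 in AJ lungs, where 2.10% and 4.55% of all genes rose. At 6 h, 3 of 4 rose in C3H lungs and 4 of 4 in AJ lungs, beside 3.95% and 7.04% of all genes. None of the 4 fell with allergen, whereas over all genes 1.15% fell in C3H and 3.25% in AJ at 24 h, and 3.72% and 12.0% at 6 h. With each array centred on its median instead, 290 genes rose and 75 fell in C3H at 24 h, against 260 and 142, and in AJ at 6 h 1002 rose and 1044 fell, against 873 and 1485.

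**Figure D1:**
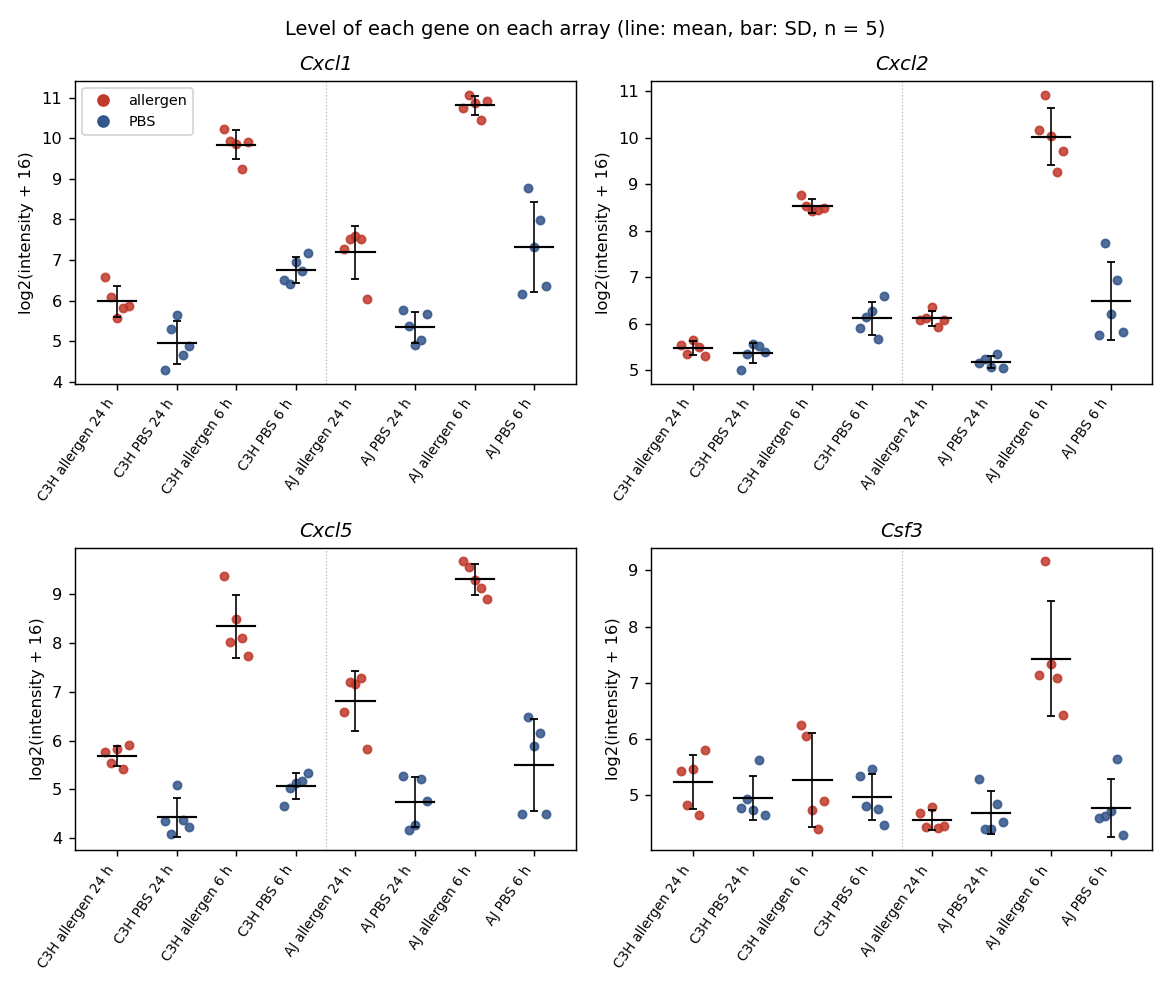
Level of each gene on each array as log2(intensity + 16), by strain, treatment and time; each point is 1 array, the line is the mean and the bar the SD of 5 arrays. For Cxcl1, Cxcl2 and Cxcl5 the allergen arrays at 6 h stand above the other groups in both strains, and for Csf3 those of AJ alone do.

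Cxcl1, also called KC, is a main neutrophil chemoattractant of the mouse. In C3H lungs at 24 h its intensity was 79.8, 51.9, 31.1, 39.8 and 42.3 with allergen, against 3.6, 23.2, 34.2, 9.2 and 13.6 with PBS. In AJ lungs at 24 h it was 138.1, 168.1, 177.9, 168.6 and 49.8 with allergen, against 38.2, 25.2, 14.0, 16.5 and 34.7 with PBS. The C3H groups overlapped at 24 h, and the AJ groups did not, with allergen replicate 5 far below the other 4 allergen arrays. At 6 h the C3H intensities were 1179.5, 959.4, 915.4, 593.4 and 944.0 with allergen, against 74.9, 69.5, 107.2, 90.0 and 128.8 with PBS. At 6 h the AJ intensities were 1709.2, 2134.1, 1851.0, 1387.6 and 1906.1 with allergen, against 55.1, 419.5, 143.2, 238.5 and 66.0 with PBS. The groups were far apart in both strains at 6 h, although the PBS arrays of AJ spread widely, with replicate 2 highest.

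At 24 h the Cxcl1 difference in C3H lungs was 1.02 ± 0.33 (SE) with an adjusted p of 0.0844 in limma, so it did not pass. With a pseudocount of 1 that difference was 1.74 and passed in limma (adjusted p = 0.0263), and its exact two-sided permutation p over 5 against 5 arrays was 0.0159 without adjustment, in 1 of 48 such tests run for these genes (the smallest p this test allows is 0.00794). Cxcl1 rose in AJ lungs at 24 h by 1.85 ± 0.33 (limma adjusted p = 0.000171). At 6 h it rose by 3.08 ± 0.33 in C3H lungs (limma adjusted p = 3.34e-08) and by 3.49 ± 0.33 in AJ lungs (adjusted p = 2.50e-10). On this scale the 6 h rises are 8.46-fold and 11.3-fold.

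Cxcl2, also called MIP-2, is made largely by macrophages and neutrophils. In C3H lungs at 24 h its intensity was 31.0, 24.9, 34.5, 29.6 and 23.8 with allergen, against 16.3, 24.6, 31.6, 29.7 and 26.3 with PBS. In AJ lungs at 24 h it was 51.9, 53.4, 66.3, 44.9 and 52.2 with allergen, against 19.7, 22.1, 17.6, 25.1 and 17.2 with PBS. The C3H groups lay on top of each other at 24 h, whereas those of AJ were apart. In C3H lungs at 6 h the intensities were 421.3, 351.6, 325.0, 330.8 and 344.6 with allergen, against 43.7, 54.7, 61.1, 35.2 and 80.9 with PBS. The AJ intensities at 6 h were 1128.8, 1918.0, 1033.7, 601.1 and 820.2 with allergen, against 38.2, 197.2, 58.1, 106.5 and 40.4 with PBS. All 5 C3H allergen arrays at 6 h stood below all 5 AJ allergen arrays, and AJ replicate 2 was the highest in both of its groups.

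At 24 h the Cxcl2 difference in C3H lungs was 0.11 ± 0.25 (SE, limma adjusted p = 0.865), with an interval from -0.39 to 0.61. Cxcl2 rose in AJ lungs at 24 h by 0.94 ± 0.25 (limma adjusted p = 0.0113). That call was lost with a pseudocount of 64, where the difference was 0.48 (adjusted p = 0.125). At 6 h Cxcl2 rose by 2.41 ± 0.25 in C3H lungs (limma adjusted p = 1.03e-08) and by 3.53 ± 0.25 in AJ lungs (adjusted p = 1.58e-13).

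Cxcl5, also called LIX, is made chiefly by epithelial cells in the mouse lung. In C3H lungs at 24 h its intensity was 38.2, 30.6, 40.4, 26.5 and 43.7 with allergen, against 4.4, 0.9, 18.1, 4.9 and 2.8 with PBS. In AJ lungs at 24 h it was 79.6, 131.3, 126.9, 138.3 and 40.5 with allergen, against 22.7, 1.9, 3.4, 21.1 and 11.3 with PBS. In neither strain did the groups overlap at 24 h. C3H lungs at 6 h had intensities of 641.8, 241.5, 343.2, 256.1 and 194.6 with allergen, against 9.2, 16.9, 19.1, 20.3 and 24.6 with PBS. AJ lungs at 6 h had intensities of 791.9, 727.5, 604.1, 536.7 and 455.8 with allergen, against 6.6, 73.5, 43.2, 55.5 and 6.7 with PBS. Every allergen array at 6 h was brighter than every PBS array of its strain, and C3H allergen replicate 1 stood well above the other 4 of its group.

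Cxcl5 rose in all 4 allergen comparisons, and it was the only one of the 4 genes to do so. At 24 h it rose by 1.26 ± 0.32 in C3H lungs (SE, limma adjusted p = 0.0224) and by 2.07 ± 0.32 in AJ lungs (adjusted p = 1.68e-05). The C3H call at 24 h was lost without C3H allergen 24 h replicate 1 (1.24, adjusted p = 0.0578) or without C3H PBS 24 h replicate 5 (1.21, adjusted p = 0.0562). It was also lost with a pseudocount of 64 (0.51, adjusted p = 0.153). At 6 h Cxcl5 rose by 3.26 ± 0.32 in C3H lungs (limma adjusted p = 3.99e-09) and by 3.79 ± 0.32 in AJ lungs (adjusted p = 1.53e-11).

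Csf3 was dim on most arrays. In C3H lungs at 24 h its intensity was 26.9, 12.1, 27.9, 8.8 and 39.9 with allergen, against 11.1, 14.5, 10.6, 32.9 and 8.9 with PBS. In AJ lungs at 24 h it was 9.5, 5.5, 11.6, 5.3 and 5.6 with allergen, against 22.9, 5.1, 5.0, 12.4 and 6.8 with PBS. The groups of both strains overlapped at 24 h and many values lay below 16, so little can be read from the order of these arrays. The 6 h intensities of C3H were 60.0, 50.5, 10.3, 4.9 and 13.7 with allergen, against 24.3, 11.7, 27.8, 10.9 and 6.1 with PBS. Those of AJ at 6 h were 125.0, 555.9, 144.5, 119.8 and 70.1 with allergen, against 8.0, 8.5, 10.3, 34.0 and 3.5 with PBS. Among C3H allergen arrays at 6 h replicates 1 and 2 alone exceeded the PBS arrays, while all 5 AJ allergen arrays stood above every other array at 6 h, with replicate 2 far above the rest.

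At 24 h the Csf3 difference was 0.29 ± 0.35 in C3H lungs and -0.14 ± 0.35 in AJ lungs (SE, limma adjusted p = 0.720 and 0.910). In C3H lungs at 6 h it was 0.30 ± 0.35 (limma adjusted p = 0.727), with an interval from -0.41 to 1.01. In AJ lungs at 6 h Csf3 rose by 2.66 ± 0.35 (limma adjusted p = 2.91e-07). Without AJ allergen 6 h replicate 2, the brightest array, the rise was 2.23 (limma adjusted p = 9.76e-07). The pseudocount set its size, at 3.83 with 1 and 1.57 with 64.

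**Figure D2:**
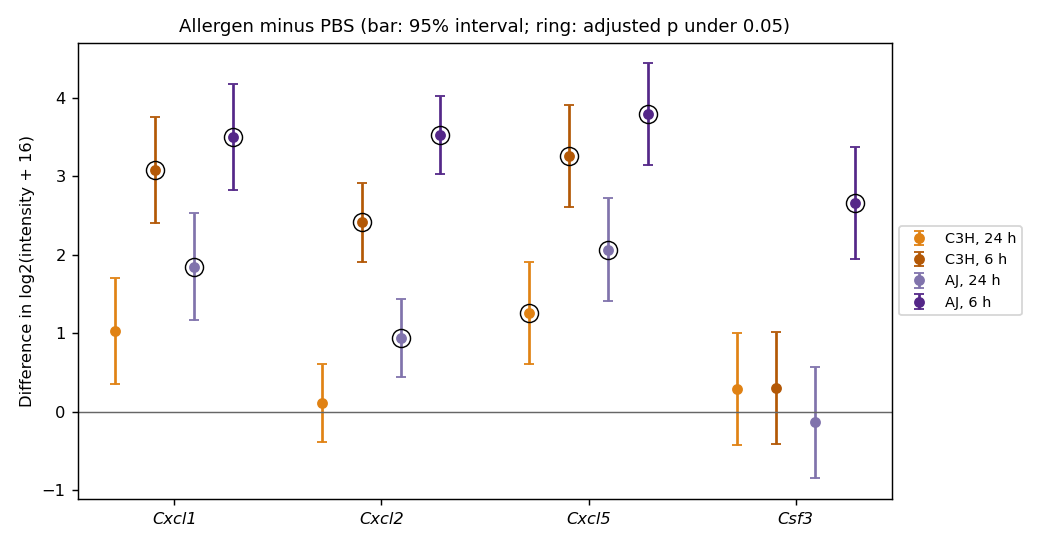
Allergen minus PBS for each gene on the log2(intensity + 16) scale in C3H and AJ lungs at 24 h and 6 h; points are limma estimates from 5 against 5 arrays, bars their 95% intervals, and rings mark an adjusted p below 0.05. Cxcl5 passes in all 4 comparisons, and Csf3 passes in AJ at 6 h alone, at 2.66.

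The allergen effect was then compared between strains as C3H minus AJ, which is the test of whether one strain responded more. Of the 4 genes at both times, Csf3 at 6 h alone passed. At 24 h the differences were -0.83 ± 0.47 for Cxcl1, -0.83 ± 0.35 for Cxcl2, -0.81 ± 0.45 for Cxcl5 and 0.43 ± 0.50 for Csf3. None of the 4 passed in limma (adjusted p from 0.305 to 0.778), beside 0.234% of all genes that were lower in this test. With arrays centred on their medians, 16 genes were lower and 27 higher at 24 h, against 29 and 28. Unadjusted, the interval for Cxcl2 ran from -1.54 to -0.12, whereas those for the other 3 genes crossed 0. In a fit of the 4 groups of the contrast alone, Cxcl2 passed (adjusted p = 0.0214). That Cxcl1 and Cxcl2 rose at 24 h in AJ lungs and did not pass in C3H lungs therefore does not show a difference between the strains.

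At 6 h the Csf3 effect was smaller in C3H lungs, with a difference of -2.36 ± 0.50 (SE, limma adjusted p = 0.00501) with an interval from -3.36 to -1.35. Fitted on the 4 groups of that contrast alone, the same difference had an adjusted p of 0.0624. Csf3 was the 1 gene of the 4 that passed, beside 1.02% of all genes that were lower in this test. With arrays centred on their medians, 139 genes were lower and 68 higher at 6 h, against 127 and 142. For Cxcl2 the difference at 6 h was -1.12 ± 0.35 (adjusted p = 0.0828), which did not pass. It passed without AJ PBS 6 h replicate 2 (-1.43, adjusted p = 0.00556), without AJ allergen 6 h replicate 4 (-1.30, adjusted p = 0.0337) and with a pseudocount of 64 (-1.12, adjusted p = 0.0137). For Cxcl1 and Cxcl5 the differences at 6 h were -0.41 ± 0.47 and -0.52 ± 0.45, with intervals from -1.37 to 0.54 and from -1.44 to 0.40.

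The levels themselves were also set against each other. Among allergen lungs at 24 h, Cxcl1 was lower in C3H than in AJ by a difference of -1.21 ± 0.33 and Cxcl5 by -1.12 ± 0.32 (SE, limma adjusted p = 0.0197 and 0.0253). These were 2 of the 4 genes, beside 4.07% of all genes that were lower in C3H (319 lower and 538 higher with arrays centred on their medians, against 505 and 384). The Cxcl1 call was lost on leaving out any one of AJ allergen 24 h replicates 2, 3 and 4 or C3H allergen 24 h replicate 3 (-1.13 to -1.11, adjusted p 0.0547 to 0.0586). The Cxcl5 call was lost without AJ allergen 24 h replicate 2, 3 or 4 or C3H allergen 24 h replicate 1 (-1.14 to -1.0, adjusted p 0.0537 to 0.0759). It was also lost with a pseudocount of 1 (-1.39, adjusted p = 0.143). Cxcl2 and Csf3 stood at -0.64 ± 0.25 and 0.68 ± 0.35 and did not pass in limma (adjusted p = 0.108 and 0.257). Cxcl2 passed in a fit of these 2 groups alone (adjusted p = 0.00687). The exact two-sided permutation p, unadjusted, was 0.00794 for Cxcl2 and 0.0317 for Csf3.

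Among allergen lungs at 6 h, Csf3 was lower in C3H by -2.17 ± 0.35 and Cxcl2 by -1.49 ± 0.25 (SE, limma adjusted p = 3.60e-05 and 4.82e-05), beside 3.61% of all genes lower in C3H. With arrays centred on their medians 682 genes were lower and 368 higher there, and with quantile normalization 512 and 500, against 448 and 707. Cxcl1 and Cxcl5 had differences of -0.98 ± 0.33 and -0.96 ± 0.32 and did not pass (limma adjusted p = 0.0587 and 0.0517). Both passed with arrays centred on their medians (adjusted p = 0.0371 for Cxcl1 and 0.0294 for Cxcl5), with the dimmest 25% of genes left out (0.0449 and 0.0394) and with a pseudocount of 64 (0.00888 and 0.00328). Cxcl1 also passed in a fit of these 2 groups alone (adjusted p = 0.00724), and Cxcl5 with a variance trend (adjusted p = 0.0470). The exact two-sided permutation p, unadjusted, was 0.00794 for Cxcl1 and 0.0317 for Cxcl5. The Cxcl5 difference passed too without C3H allergen 6 h replicate 1 (-1.22, adjusted p = 0.0122) or without AJ allergen 6 h replicate 5 (-1.06, adjusted p = 0.0409). Among PBS lungs none of the 4 genes passed between strains in limma (adjusted p from 0.391 to 0.889). There 2.00% of all genes differed between the strains at 24 h and 4.52% at 6 h. The 4 differences ran from -0.39 to 0.25 at 24 h and from -0.56 to 0.19 at 6 h.

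The allergen effect was smaller at 24 h than at 6 h for the 3 chemokines in both strains. In C3H lungs the 24 h effect minus the 6 h effect was -2.06 ± 0.47 for Cxcl1, -2.30 ± 0.35 for Cxcl2 and -2.0 ± 0.45 for Cxcl5 (SE, limma adjusted p = 0.0258, 0.000593 and 0.0243). In AJ lungs it was -1.65 ± 0.47 for Cxcl1, -2.59 ± 0.35 for Cxcl2 and -1.72 ± 0.45 for Cxcl5 (limma adjusted p = 0.0294, 4.20e-06 and 0.0161). For Csf3 it was -2.79 ± 0.50 in AJ lungs (limma adjusted p = 0.000315), where Csf3 had risen at 6 h. In C3H lungs, where Csf3 had not passed at either time, it was -0.01 ± 0.50 with an interval from -1.02 to 0.99. So 3 of 4 genes passed in C3H and 4 of 4 in AJ, beside 0.436% and 2.11% of all genes that were lower in these tests. With arrays centred on their medians, 36 genes were lower and 56 higher in C3H, against 54 and 55, and 274 lower and 290 higher in AJ, against 261 and 437.

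**Figure D3:**
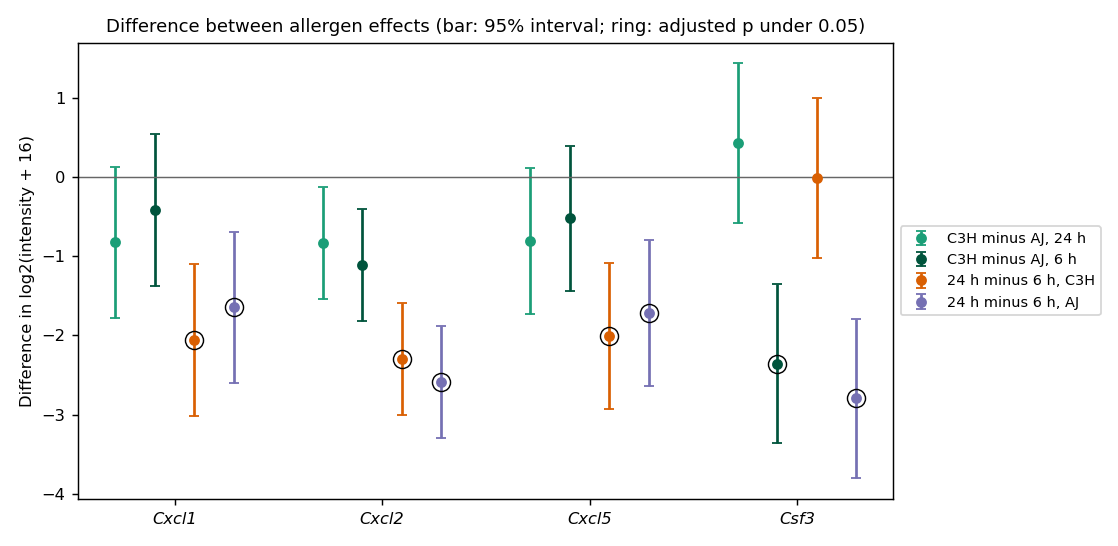
Differences in the allergen effect for each gene, on the log2(intensity + 16) scale, between strains (C3H minus AJ, at 24 h and 6 h) and between times (24 h minus 6 h, in C3H and AJ); points are limma estimates, bars 95% intervals, and rings an adjusted p below 0.05. All differences between times for Cxcl1, Cxcl2 and Cxcl5 pass and lie below 0, and of those between strains the 6 h difference for Csf3 alone passes, at -2.36.

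Several of these time differences lost their call when 1 array was left out. That of Cxcl1 in C3H lungs lost its call without C3H allergen 24 h replicate 3, allergen 6 h replicate 1, PBS 24 h replicate 3, or PBS 6 h replicate 1 or 2 (-1.99 to -1.88, adjusted p 0.0509 to 0.0652). That of Cxcl5 in C3H lungs lost it without C3H allergen 6 h replicate 1, PBS 24 h replicate 3 or PBS 6 h replicate 1 (-1.90 to -1.75, adjusted p 0.0545 to 0.0652). That of Cxcl1 in AJ lungs lost it without AJ allergen 24 h replicate 5, allergen 6 h replicate 2, PBS 24 h replicate 1 or 5, or PBS 6 h replicate 1 or 5 (-1.58 to -1.35, adjusted p 0.0527 to 0.0781). With a pseudocount of 1 the differences of Cxcl1 and Cxcl5 did not pass in either strain. The Cxcl2 differences of both strains and the Csf3 difference of AJ kept their calls under every alternative run for them.

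Between the times, Cxcl1 fell more than any other of the 12393 genes among C3H allergen lungs, with a difference of -3.86 ± 0.33 at 24 h against 6 h (SE, limma adjusted p = 1.87e-10). Cxcl2 and Cxcl5 stood at -3.05 ± 0.25 and -2.65 ± 0.32 there, and Csf3 at -0.03 ± 0.35 (limma adjusted p = 0.958). Among AJ allergen lungs Cxcl2 had the largest change of any gene, -3.90 ± 0.25 (limma adjusted p = 1.76e-14), followed by Cxcl1 at -3.62 ± 0.33. Csf3 and Cxcl5 fell there too, at -2.88 ± 0.35 and -2.49 ± 0.32. Of all genes, 10.7% fell between these times among C3H allergen lungs and 6.97% among AJ allergen lungs. With arrays centred on their medians, 856 fell and 1731 rose in C3H, against 1323 and 1269, and 1132 fell and 918 rose in AJ, against 864 and 1510.

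Lungs that received PBS alone also had lower Cxcl1 at 24 h than at 6 h, and in AJ lower Cxcl2. Cxcl1 fell there at 24 h against 6 h, with log2 differences of -1.80 ± 0.33 among C3H PBS lungs (SE, limma adjusted p = 0.000991) and -1.97 ± 0.33 among AJ PBS lungs (adjusted p = 0.000236). Cxcl2 stood at -0.75 ± 0.25 among C3H PBS lungs, which did not pass (limma adjusted p = 0.0845), and fell among AJ PBS lungs, with a difference of -1.31 ± 0.25 (adjusted p = 0.000868). The C3H difference of Cxcl2 passed with a pseudocount of 1 (-1.05, limma adjusted p = 0.0417), and its exact two-sided permutation p, unadjusted, was 0.00794. Cxcl5 stood at -0.64 ± 0.32 and -0.77 ± 0.32 in C3H and AJ PBS lungs and did not pass (limma adjusted p = 0.315 and 0.154). For Cxcl5 in C3H PBS lungs the exact two-sided permutation p, unadjusted, was 0.0238, and in AJ PBS lungs it was 0.151. Without AJ PBS 6 h replicate 5 the AJ difference of Cxcl5 was -1.02 and passed (adjusted p = 0.0486). Among PBS lungs 1.46% of all genes fell between the times in C3H and 2.50% in AJ. With arrays centred on their medians, 372 fell and 253 rose in AJ, against 310 and 372. No lung without aspiration is among these groups.

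By mean log2 level, AJ allergen 6 h was the highest of the 8 groups for all 4 genes, followed by C3H allergen 6 h. For Csf3 the C3H allergen 6 h level, 5.26 ± 0.84 (SD, n = 5), lay within the spread of C3H allergen 24 h at 5.23 ± 0.49. The Cxcl1 level was 9.83 ± 0.36 in C3H allergen 6 h and 10.81 ± 0.23 in AJ allergen 6 h (SD, n = 5). Next for Cxcl1 came AJ PBS 6 h at 7.32 ± 1.10 and AJ allergen 24 h at 7.19 ± 0.66, which lie within each other's spread. The lowest Cxcl1 levels, C3H PBS 24 h at 4.96 ± 0.53 and AJ PBS 24 h at 5.34 ± 0.38, also lie within their spread. Cxcl2 was lowest in AJ PBS 24 h (5.18 ± 0.13), Cxcl5 in C3H PBS 24 h (4.43 ± 0.39) and Csf3 in AJ allergen 24 h (4.55 ± 0.17).

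A list of receptors and binding partners was also measured. It is wider than the partners of these ligands and counts Ackr3 and Gpr35 too. In this and the following paragraphs on gene lists a value with ± is a log2 difference, allergen minus PBS, with its SE. Of 7, none rose in C3H lungs and 2 in AJ lungs at 24 h, where Sdc1 fell, and 4 rose in C3H lungs and 6 in AJ lungs at 6 h. Of all genes, 2.10% and 4.55% rose in C3H and AJ lungs at 24 h, and 3.95% and 7.04% at 6 h. In AJ lungs at 24 h 3.25% fell. The median log2 difference of the list at 6 h was 0.78 in C3H and 1.24 in AJ, beside -0.0017 and -0.07 over all genes. Cxcr2, the receptor of the 3 chemokines on neutrophils, stood at 0.72 ± 0.35 in C3H lungs at 6 h (SE, limma adjusted p = 0.252) and rose by 1.55 ± 0.35 in AJ lungs at 6 h (adjusted p = 0.00115). Csf3r, the receptor of Csf3, stood at 0.02 ± 0.23 in C3H lungs at 24 h and rose by 1.32 ± 0.23 in AJ lungs. At 6 h Csf3r rose by 0.84 ± 0.23 in C3H lungs and by 1.33 ± 0.23 in AJ lungs. Sdc4, a heparan sulphate proteoglycan that can hold chemokines, rose by 1.30 ± 0.21 and 1.47 ± 0.21 in C3H and AJ lungs at 6 h. Ackr1, a decoy receptor of erythrocytes and venules, rose by 0.78 ± 0.16 and 0.92 ± 0.16 there. Ackr3, a scavenger receptor of other CXC ligands, stood at -0.06 ± 0.15 in C3H lungs and rose by 1.24 ± 0.15 in AJ lungs at 6 h, and the strain difference of -1.30 ± 0.22 passed (limma adjusted p = 0.000343). For no other gene of this list did the allergen effect pass between strains at 6 h, and for none at 24 h. The Cxcr2 and Csf3r values therefore do not show a difference in response between the strains.

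Of the neighbours in the cluster, 3 were measured. Cxcl15, a lung epithelial chemokine also called lungkine, stood between -0.02 ± 0.12 and 0.26 ± 0.12 in the 4 allergen comparisons, and Ppbp, a platelet chemokine, between -0.27 ± 0.19 and 0.21 ± 0.19. Neither passed. Pf4, the other platelet chemokine, rose in AJ lungs by 1.15 ± 0.15 at 24 h and 0.53 ± 0.15 at 6 h (SE, limma adjusted p = 5.75e-07 and 0.00850). Its allergen effect passed between strains at 24 h and not at 6 h. Cxcl3 was not among the genes tested here. Of 7 further CXC ligands, 2 rose in C3H lungs and 4 in AJ lungs at 24 h, and 3 and 2 at 6 h. The shares of all genes that rose were 2.10% and 4.55% at 24 h, and 3.95% and 7.04% at 6 h. In C3H lungs at 24 h 1.15% fell. Cxcl10 and Cxcl9, ligands of Cxcr3, a chemokine receptor found on T cells, rose in all 4 comparisons. Cxcl10 rose at 24 h by 1.58 ± 0.22 in C3H lungs and 0.83 ± 0.22 in AJ lungs, and at 6 h by 2.68 ± 0.22 and 3.37 ± 0.22. Cxcl14 fell in C3H lungs at 24 h, with a difference of -0.68 ± 0.18. The allergen effect of none of these 7 ligands passed between strains at 24 h or 6 h.

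Of 9 measured cytokines that act upstream of such genes or beside them, none rose in C3H lungs and 1 in AJ lungs at 24 h, and 5 rose in each strain at 6 h. Over all genes 2.10% and 4.55% rose in C3H and AJ lungs at 24 h, and 3.95% and 7.04% at 6 h. Il1b rose at 24 h by 1.79 ± 0.24 in AJ lungs, and at 6 h by 2.01 ± 0.24 in C3H lungs and 2.60 ± 0.24 in AJ lungs. Tnf rose at 6 h by 1.90 ± 0.26 and 2.04 ± 0.26 in C3H and AJ lungs, and Il1a by 0.95 ± 0.18 and 1.5 ± 0.18. Il17a rose in AJ lungs at 6 h alone, by 0.56 ± 0.17 (SE, limma adjusted p = 0.0164), and its difference between the strains did not pass (-0.33 ± 0.24, adjusted p = 0.597). Il6, which shares inducers with Csf3, rose at 6 h by 0.88 ± 0.21 in C3H lungs and 2.78 ± 0.21 in AJ lungs. That strain difference, -1.90 ± 0.30, passed (limma adjusted p = 0.000170). For the other cytokines of this list the allergen effect passed between strains at neither time, and for Il6 it did not at 24 h.

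Of 8 NF-kB factors and partners, none rose in C3H lungs and 3 in AJ lungs at 24 h, and 3 and 7 at 6 h. Beside them 2.10% and 4.55% of all genes rose at 24 h, and 3.95% and 7.04% at 6 h. Nfkbiz, the nuclear IkB protein that IL-17 and IL-1 targets need, rose at 6 h by 1.08 ± 0.19 in C3H lungs and 1.96 ± 0.19 in AJ lungs. The strain difference in that effect did not pass for Nfkbiz. Bcl3, a related nuclear cofactor, rose at 6 h by 1.27 ± 0.19 and 2.62 ± 0.19, and its strain difference of -1.35 ± 0.27 passed (SE, limma adjusted p = 0.00380). Cebpd, a partner factor at such genes, stood at 0.08 ± 0.19 and 0.12 ± 0.19 in C3H lungs at 24 h and 6 h. In AJ lungs Cebpd rose by 0.63 ± 0.19 at 24 h and 1.34 ± 0.19 at 6 h, and its 6 h strain difference of -1.21 ± 0.27 passed (limma adjusted p = 0.00734). At 24 h the allergen effect of no NF-kB factor on the list passed between strains.

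**Figure D4:**
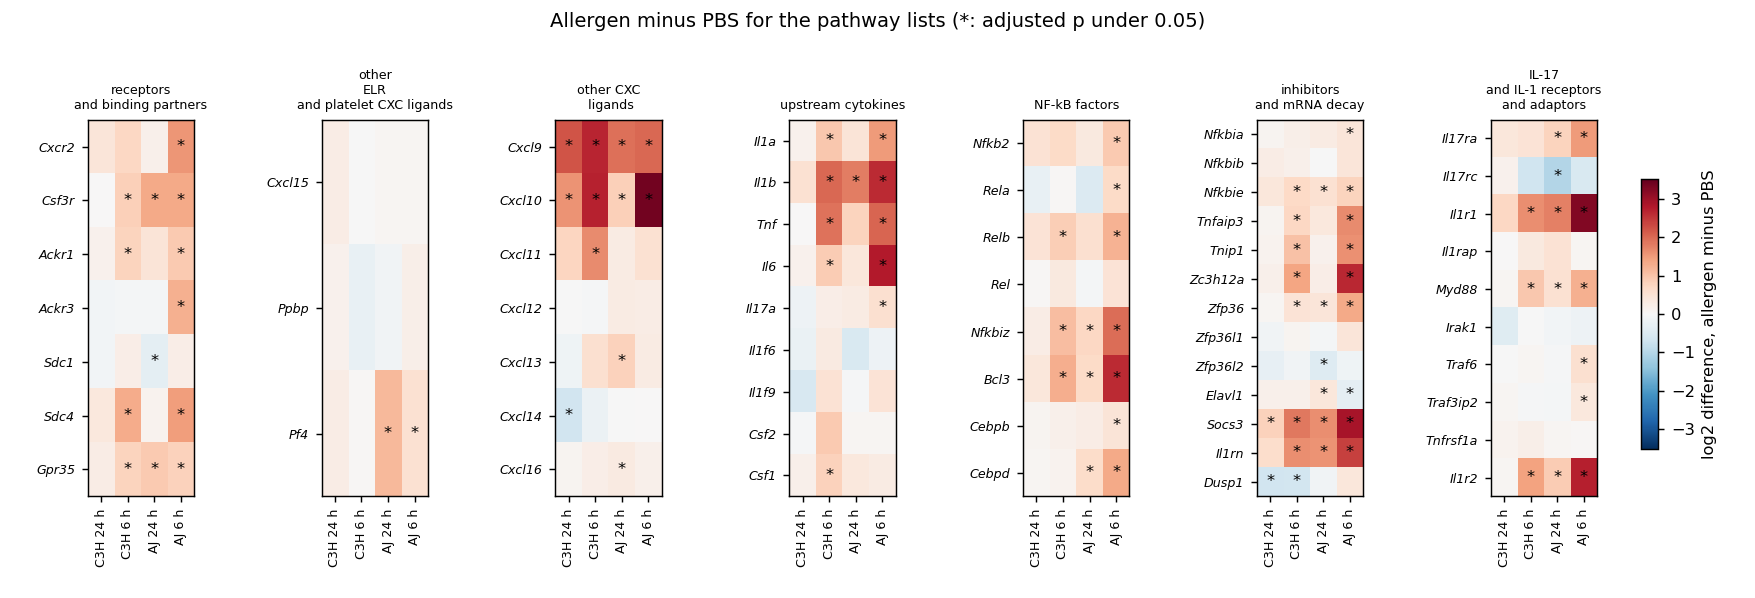
Allergen minus PBS on the log2(intensity + 16) scale for each measured gene of the 7 lists, with 1 column for each of C3H 24 h, C3H 6 h, AJ 24 h and AJ 6 h; red is higher and blue lower with allergen, and a star marks an adjusted p below 0.05. The AJ 6 h column holds the most stars in the lists of receptors, NF-kB factors and inhibitors, with 6 of 7, 7 of 8 and 9 of 13 genes. Over all 12393 genes too AJ 6 h had the most calls, with 7.04% higher and 12.0% lower.

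Of 13 inhibitors and mRNA decay factors, 1 rose and 1 fell in C3H lungs and 5 rose and 1 fell in AJ lungs at 24 h. At 6 h 7 rose and 1 fell in C3H lungs, and 8 rose and 1 fell in AJ lungs. The shares of all genes that rose were 2.10% and 4.55% in C3H and AJ lungs at 24 h, and 3.95% and 7.04% at 6 h. Those that fell were 1.15% and 3.25% at 24 h, and 3.72% and 12.0% at 6 h. Socs3, which inhibits signalling of the Csf3 and Il6 receptors, rose in all 4 comparisons, by 0.81 ± 0.17 and 1.86 ± 0.17 in C3H lungs at 24 h and 6 h and by 1.62 ± 0.17 and 2.88 ± 0.17 in AJ lungs. Zc3h12a, the ribonuclease Regnase-1 that cuts inflammatory mRNAs, stood at 0.19 ± 0.18 and 0.24 ± 0.18 in C3H and AJ lungs at 24 h. At 6 h Zc3h12a rose by 1.37 ± 0.18 in C3H lungs and 2.63 ± 0.18 in AJ lungs, with a strain difference of -1.27 ± 0.26 that passed (SE, limma adjusted p = 0.00380). Zfp36, tristetraprolin, which speeds the decay of AU-rich mRNAs, rose at 6 h by 0.47 ± 0.13 and 1.34 ± 0.13, and Tnfaip3, the NF-kB inhibitor A20, by 0.73 ± 0.15 and 1.66 ± 0.15. Dusp1, a phosphatase of stress kinases, fell in C3H lungs at 24 h and 6 h, with differences of -0.68 ± 0.15 and -0.65 ± 0.15. Elavl1, an RNA-binding protein that stabilises mRNAs, rose by 0.40 ± 0.11 at 24 h in AJ lungs and fell there at 6 h, with a difference of -0.32 ± 0.11. The allergen effects of Socs3, Zfp36, Tnfaip3 and Dusp1 also passed between strains at 6 h. No inhibitor or decay factor passed so at 24 h.

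Of 10 receptors and adaptors for IL-17 and IL-1, none rose in C3H lungs at 24 h, and 4 rose and 1 fell in AJ lungs. At 6 h 3 rose in C3H lungs and 6 in AJ lungs. Over all genes 2.10% and 4.55% rose in C3H and AJ lungs at 24 h, and 3.95% and 7.04% at 6 h. In AJ lungs at 24 h 3.25% fell. Il1r1, the signalling receptor of IL-1, rose at 6 h by 1.63 ± 0.32 in C3H lungs and 3.24 ± 0.32 in AJ lungs, and Il1r2, its decoy, by 1.41 ± 0.21 and 2.71 ± 0.21. Between strains the 6 h effect of Il1r2 passed and that of Il1r1 did not. Il17ra, a subunit of the IL-17 receptor, stood at 0.40 ± 0.16 and 0.48 ± 0.16 in C3H lungs at 24 h and 6 h. In AJ lungs it rose by 0.78 ± 0.16 at 24 h and 1.49 ± 0.16 at 6 h, and the strain difference at 6 h of -1.02 ± 0.23 passed (SE, limma adjusted p = 0.00973). At 24 h the allergen effect of none of these receptors and adaptors passed between strains.

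Neutrophil markers were set beside these values. Of 16 measured, 1 rose in C3H lungs and 7 in AJ lungs at 24 h, and 9 and 13 at 6 h, and none fell. Beside them 2.10% and 4.55% of all genes rose at 24 h, and 3.95% and 7.04% at 6 h. Shares that fell were 1.15% and 3.25% at 24 h, and 3.72% and 12.0% at 6 h. The list includes Cxcr2 and Csf3r. The mean log2 level of the list per array ran from 6.55 to 6.77 in C3H allergen 24 h, against 6.34 to 6.55 in C3H PBS 24 h, and from 7.24 to 8.30 in C3H allergen 6 h, against 6.51 to 7.03 in C3H PBS 6 h. In AJ lungs it ran from 7.14 to 7.76 in allergen 24 h, against 6.31 to 6.48 in PBS 24 h, and from 7.98 to 8.41 in allergen 6 h, against 6.40 to 6.90 in PBS 6 h. S100a8, a subunit of the neutrophil protein calprotectin, stood at 0.32 ± 0.46 in C3H lungs at 24 h and rose by 2.92 ± 0.46 in AJ lungs, and at 6 h it rose by 1.73 ± 0.46 in C3H and 3.97 ± 0.46 in AJ. The S100a8 difference between strains in that effect passed at neither time. For 2 of the 16 markers at 24 h, Clec4d and Itgam, the effect was smaller in C3H and passed. At 6 h the same held for 3, Ngp, Camp and Clec4d. Over all genes 0.234% and 1.02% were lower in these tests at 24 h and 6 h. Whether the dimmest markers of the list lay above background is unknown, as no detection calls were used. Mpo and Elane, granule enzymes of immature neutrophils, did not pass in any of the 4 comparisons, and the Elane group means lay between 4.63 and 4.89. Ngp and Camp, also granule genes, rose in AJ lungs at 6 h alone. The part of neutrophil number in the levels of the 4 genes was not tested.

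The arrays that stand apart in the 4 genes can be set beside these markers. AJ allergen 24 h replicate 5 had the lowest Cxcl1 and Cxcl5 of its group and the highest neutrophil markers, 7.76. C3H allergen 6 h replicates 1 and 2, the brightest of their group for Csf3, had its highest neutrophil markers, 8.16 and 8.30. AJ PBS 6 h replicate 2, the brightest of its group for all 3 chemokines, also had its highest neutrophil markers, 6.90. AJ allergen 6 h replicate 2 was highest for Cxcl1, Cxcl2 and Csf3, and its marker level of 8.37 lay in the middle of its group.

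**Figure D5:**
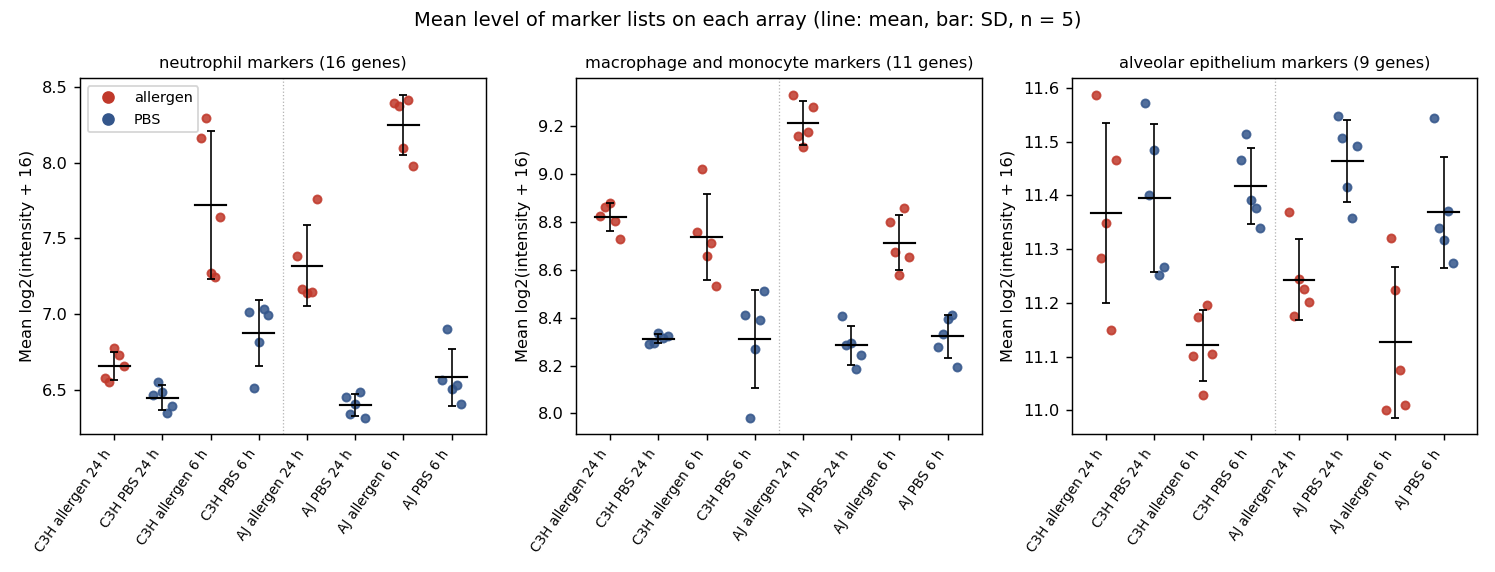
Mean log2(intensity + 16) of neutrophil, macrophage and monocyte, and alveolar epithelium markers on each array, by strain, treatment and time; each point is 1 array, the line is the mean and the bar the SD of 5 arrays. By group mean, neutrophil markers are highest in AJ allergen 6 h, from 7.98 to 8.41. The arrays of C3H allergen 6 h, from 7.24 to 8.30, overlap that range.

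Markers of other cells were read in the same way. The shares of all genes that rose were 2.10% and 4.55% in C3H and AJ lungs at 24 h, and 3.95% and 7.04% at 6 h. Those that fell were 1.15% and 3.25% at 24 h, and 3.72% and 12.0% at 6 h. Macrophage and monocyte markers rose in 5 and 8 of 11 in C3H and AJ lungs at 24 h, and in 4 and 5 at 6 h. T and NK cell markers rose in 1 and 3 of 8 at 24 h, and in 0 and 2 at 6 h, and 1 of 3 B cell markers rose in each comparison. Alveolar epithelium markers fell in 0 and 2 of 9 at 24 h and in 2 and 3 at 6 h, and endothelium markers in 1 and 1 of 5 at 24 h and 1 and 2 at 6 h. Club cell markers fell in 0 and 2 of 3 at 24 h and in 1 and 0 at 6 h. The lung markers Sftpc and Scgb1a1 had median intensities of at least 4874 and 4933 in every group. Of 7 markers of heart and skeletal muscle, 3 fell in AJ lungs at 24 h, where 2 of 3 liver markers, Alb and Apoa1, fell too. Alb had a median intensity of 44.7 in AJ allergen 24 h, against a median of 183 and a highest value of 457 in AJ PBS 24 h. The part of these tissues in the AJ differences at 24 h was not tested.

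Genes most similar in pattern and size of change were sought over the 8 group means, each gene centred on its own mean. The measure was the root mean square difference on the log2 scale. For Cxcl1 the nearest genes were Cxcl2 (0.50), Cxcl5 (0.60), Ccl3 (0.65), Clec4e (0.73) and Il1b (0.82), where the median over all genes was 1.95. For Cxcl2 they were Ccl3 (0.36), Cxcl1 (0.50), Acod1 (0.56), Ccl20 (0.58) and Clec4e (0.58). For Cxcl5 they were Ccl3 (0.39), Cxcl10 (0.49), Socs3 (0.51), S100a9 (0.55) and Il1b (0.56). For Csf3 they were Mx2 (0.25), Rsad2 (0.25), Rhou (0.28), Il6 (0.32) and Rcan1 (0.32), where the median over all genes was 0.90. Csf3 was nearer to these than to Cxcl1, Cxcl2 or Cxcl5, at 1.44, 1.01 and 1.17. The size of change enters this measure. Group means of Csf3 spanned 2.88, against 5.86, 4.84 and 4.86 for Cxcl1, Cxcl2 and Cxcl5. The distances of Csf3 from these 3 therefore do not separate a different pattern from a smaller change. The likeness is a description of 8 means that share their arrays.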

How the data were processed

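Total RNA of mouse lung had been hybridised to 40 one-colour Affymetrix arrays. The deposited values are linear intensities, 1 for each probe set on each array, and the software that made it is not given in the sources used here. Per the values of the deposited intensity table, the mean after trimming 2% of probe sets at each end was 150.036 to 150.046 on every array, so the arrays share a scale, while array medians ran from 63.7 to 81.3. No detection calls were used. Correlations between arrays ran from 0.875 to 0.985 and 0 pairs were identical.

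Of 22690 probe sets, 64 were controls, 20380 had 1 gene symbol in the platform annotation, 691 several and 1555 none. Each gene was read from its brightest probe set with 1 symbol, which gave 12393 genes. Each of the 4 genes has 1 probe set, so probe sets of a gene could not be compared. Here log2(intensity + 16) was fitted with 8 group means over all 40 arrays by lmFit and eBayes of limma 3.58.1 in R 4.3.3, where degrees of freedom were 32 residual and 4.60 prior. The 16 contrasts were tested two-sided, and a Benjamini-Hochberg adjusted p below 0.05, taken over every gene tested, counted as passing. The fit was tested on simulated data with independent normal noise, which does not cover the behaviour of dim values.

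Members, gene lists and tests were chosen with earlier results of these data known. By rule, any list member that passed an allergen contrast could be named, and the 5 genes nearest to each of the 4 by root mean square difference. Alternatives were other scalings, pseudocounts of 1 and 64, leaving out the dimmest 25% of genes, other handling of probe sets, the groups of a contrast alone, a replicate block, array weights, a variance trend, an exact permutation test and leaving out each array.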

Additional observations from a re-analysis of the deposited data

Results flagged for a closer look

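Cxcl1 on AJ allergen 24 h replicate 5 had a log2 level of 6.04 (intensity 49.8), and its gap to the next array of the group passed Dixon's 95% limit for 5 samples. It was 1 of 32 groups of a gene's arrays past that limit, and chance passes about 1 in 20. Differences in the allergen effect that passed in limma were those between times, 24 h minus 6 h, and 1 between strains. Between times they were -2.06 in C3H and -1.65 in AJ for Cxcl1, -2.30 and -2.59 for Cxcl2, -2.0 and -1.72 for Cxcl5, and -2.79 in AJ for Csf3. Between strains, C3H minus AJ, it was -2.36 at 6 h for Csf3.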

How the results depend on the processing

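Of 1536 alternative values for the 4 genes, 1450 kept their direction and their side of the threshold, 34 lost a call, 25 gained one and 27, all of them differences of Csf3 that did not pass, changed sign. Csf3 is among the dimmest 25% of genes and so has no value when those are left out. For Csf3 the C3H allergen difference of 24 h against 6 h was 0.11 with array weights, 0.054 with arrays centred on their medians, 0.090 with a pseudocount of 1 and 0.071 with quantile normalization. Its 24 h minus 6 h difference in C3H was 0.14, 0.069, 0.11 and 0.11 under the same settings. Leaving out 1 array, Csf3 ran from -0.24 to 0.13 for 24 h against 6 h in AJ PBS, from -0.25 to 0.21 in C3H allergen, from -0.19 to 0.10 in C3H PBS, from -0.21 to 0.014 for allergen in AJ at 24 h, and from -0.23 to 0.23 for 24 h minus 6 h in C3H.

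In fits of the contrast's own groups, calls were lost for Csf3 between strains at 6 h (-2.36) and, 24 h minus 6 h in AJ, for Cxcl1 (-1.65) and Cxcl5 (-1.72), and gained for Cxcl2 between strains at 24 h (-0.83) and, C3H against AJ in allergen lungs, for Cxcl2 at 24 h (-0.64) and Cxcl1 at 6 h (-0.98). With a pseudocount of 1, the 24 h minus 6 h calls were lost for Cxcl1 (-1.54 in C3H, -1.29 in AJ) and Cxcl5 (-1.31 and -1.28), and that of Cxcl5 for C3H against AJ in allergen lungs at 24 h (-1.39), while Cxcl1 for allergen in C3H at 24 h (1.74) and Cxcl2 for 24 h against 6 h in C3H PBS (-1.05) gained one. With a pseudocount of 64, allergen calls at 24 h were lost for Cxcl2 in AJ (0.48) and Cxcl5 in C3H (0.51), and gained for Cxcl2 between strains at 6 h (-1.12) and, C3H against AJ in allergen lungs at 6 h, for Cxcl1 (-0.94) and Cxcl5 (-0.86). The last comparison also gained calls for Cxcl1 and Cxcl5 with centred arrays (-1.08 and -1.06) and with dim genes left out (-0.98 and -0.96), and for Cxcl5 with a variance trend (-0.96). Of the 25 gained calls, 7 come from the exact permutation test, which was adjusted over tests of these 4 genes alone: Cxcl1 for allergen in C3H at 24 h (1.02), Cxcl2 (-0.64) and Csf3 (0.68) for C3H against AJ in allergen lungs at 24 h, Cxcl1 (-0.98) and Cxcl5 (-0.96) at 6 h, and Cxcl2 (-0.75) and Cxcl5 (-0.64) for 24 h against 6 h in C3H PBS. The cause was not tested. Leaving out 1 array gave -2.22 to -1.88 and -2.01 to -1.35 for the Cxcl1 time differences in C3H and AJ, -2.16 to -1.75 for that of Cxcl5 in C3H, -1.43 to -0.89 for Cxcl2 between strains at 6 h, and 1.17 to 1.42 for Cxcl5 in C3H at 24 h.

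Array weights gave 713 genes called for allergen in C3H at 24 h (402 without weights), 1120 for 24 h minus 6 h in AJ (698), and 200 and 480 between strains at 24 h and 6 h (57 and 269). The contrast's own groups, with fewer samples, gave 161 for allergen in C3H at 24 h and 376 at 6 h (950 from all groups), 33 for 24 h minus 6 h in C3H (109), and 113 between strains at 6 h. Leaving out 1 array gave 188 to 619 for allergen in C3H at 24 h, lowest without allergen replicate 2 and highest without allergen replicate 4, 31 to 152 for 24 h minus 6 h in C3H, lowest without allergen 6 h replicate 1, and 19 to 177 between strains at 24 h, lowest without C3H allergen replicate 1 and highest without C3H allergen replicate 4. Centring arrays on their medians moved the median difference of all genes most for C3H against AJ in allergen lungs at 6 h, where it was -0.046, against 0.056 without centring.

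Whether the labels' replicate numbers pair the samples was looked at over 140 pairs of same-numbered arrays. Their deviations from group means correlated by a median of 0.00251 (-0.260 to 0.409), against -0.00593 for different numbers. Of 40 arrays, 13 correlated best with their own number of the 5. A median over all groups cannot show whether some groups are paired. With a replicate block, no call of the 4 genes changed (Csf3 between strains at 6 h -2.36, adjusted p = 0.00589 in limma).

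Limits: the labels conflict on allergen and strain, and they do not say that the arrays of a group are separate mice. Csf3 reached 60.0 and 50.5 on C3H allergen 6 h replicates 1 and 2. Most other Csf3 intensities outside AJ allergen 6 h lie near the dim end, where signal over background is unknown. Cxcl5 in PBS lungs at 24 h was as dim, with median intensities of 4.4 in C3H and 11.3 in AJ. So was Cxcl1 in C3H PBS 24 h, with a median of 13.6. The allergen differences at 24 h and the time differences that use these groups share that limit.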
